A study of Mus musculus with 11 samples.

Results

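The 7 genes described here encode proteins of the red cell membrane and of the skeleton beneath it: Sptb, Ank1, Slc4a1, Rhag, Add1, Add2 and Tmod1. They were chosen by name, as 7 of the 22367 protein-coding genes of the mouse annotation, and each was taken from 10 kb before its start to 10 kb past its end on mm9. These stretches hold 1347 of the 5309802 windows of 500 bp into which chromosomes 1 to 19, X and Y were divided. PU.1 ChIP-Seq reads were counted in each window and set against sequenced input chromatin of the same cell type.

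The red cell membrane is held in shape by a network of spectrin filaments, of which Sptb encodes the erythroid beta chain. Ankyrin, the product of Ank1, fastens spectrin to band 3, the anion exchanger encoded by Slc4a1, and Rhag encodes the Rh-associated glycoprotein that sits in the same membrane complexes. Adducin, made of an alpha chain (Add1) and a beta chain (Add2), caps one end of the short actin filaments at the spectrin junctions, and tropomodulin (Tmod1) caps the other. These proteins accumulate during erythroid differentiation. PU.1 belongs to the Ets family of DNA-binding proteins. It directs the formation of macrophages, granulocytes and B lymphocytes, is made in early red cell precursors as well, and binds purine-rich DNA with a GGAA core.

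Leukemic and normal immature erythroid cells of the mouse were compared. MEL cells are a murine erythroleukemia line, here 1 clone (clone 4) that stably carries Gata-1 fused to ER and was grown in DMEM with serum and puromycin. ES-EP are erythroid progenitors derived from embryonic stem cells, grown in StemPro34 with Epogen, IGF-1, dexamethasone and SCF. Each cell type gave 2 independent chromatin preparations, A and B, precipitated with the anti-PU.1 antibody T-21 and each sequenced as 2 libraries, next to 1 input library from MEL cells and 2 from ES-EP. These are ChIP and input libraries without expression values, and the study's expression data were not used here, so the erythroid identity of the cells was not checked against marker genes.

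The ChIP libraries held 2054667 to 4840424 reads on these chromosomes. With the libraries of a preparation summed, a window of the genome held on average 1.07 reads in preparation A and 1.32 in preparation B of MEL cells, with averages of 1.18 and 1.34 for ES-EP, so a few reads decide most windows. The MEL input library stood apart in having reads of 28 bases, against 27 in all other libraries. Input over chromosome 8, which holds Ank1, was 0.713 times as deep in MEL cells as in ES-EP, against 0.932 to 1.104 for the chromosomes of the other 6 genes. A window was called when its summed ChIP reads exceeded the local input background (one-sided exact Poisson test, Benjamini-Hochberg adjusted p below 0.05 over the genome) and when each preparation alone passed at an unadjusted 0.05. Levels are given as RPM, the reads of a window for every 1000000 reads of its library on these chromosomes. The tests against input and the intervals given with them cover the counting error of the ChIP reads only. The input background was taken as fixed.

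The 5 stretches of sequence printed here show how the letters bound by Ets factors lie around the highest point of ChIP reads in 5 of the called windows. They were picked for their letters and their calls, not for having the most reads. They are the 4 called windows that hold the 8-letter word GAGGAAGT and the second of the 2 windows called in both cell types. Each stretch is 200 bases of the mm9 reference centred on the highest point of ChIP reads, overlaps no annotated exon, and is written with GAGGAA, its extension GAGGAAGT and the GATA word AGATAA in capitals on either strand.
Add2 at -3.83 kb, chr6:86024000-86024199, + strand: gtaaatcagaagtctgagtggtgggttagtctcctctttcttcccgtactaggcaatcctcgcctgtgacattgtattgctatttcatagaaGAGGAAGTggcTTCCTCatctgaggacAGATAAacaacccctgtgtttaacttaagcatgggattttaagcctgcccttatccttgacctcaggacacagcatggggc
Ank1 at 63.9 kb, chr8:24149036-24149235, + strand: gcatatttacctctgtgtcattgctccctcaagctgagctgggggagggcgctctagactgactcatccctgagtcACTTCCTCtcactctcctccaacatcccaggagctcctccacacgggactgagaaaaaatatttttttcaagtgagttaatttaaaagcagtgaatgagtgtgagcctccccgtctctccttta
Ank1 at 112.4 kb, chr8:24197776-24197975, + strand: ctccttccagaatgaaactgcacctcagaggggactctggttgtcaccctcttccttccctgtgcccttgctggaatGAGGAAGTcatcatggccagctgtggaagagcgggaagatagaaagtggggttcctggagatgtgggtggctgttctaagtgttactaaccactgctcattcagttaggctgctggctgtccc
Ank1 at 134.4 kb, chr8:24219859-24220058, + strand: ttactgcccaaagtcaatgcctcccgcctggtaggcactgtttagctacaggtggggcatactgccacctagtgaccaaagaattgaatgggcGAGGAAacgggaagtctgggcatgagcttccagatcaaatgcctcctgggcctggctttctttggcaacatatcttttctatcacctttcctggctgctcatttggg
Add1 at 1.44 kb, chr5:34917549-34917748, + strand: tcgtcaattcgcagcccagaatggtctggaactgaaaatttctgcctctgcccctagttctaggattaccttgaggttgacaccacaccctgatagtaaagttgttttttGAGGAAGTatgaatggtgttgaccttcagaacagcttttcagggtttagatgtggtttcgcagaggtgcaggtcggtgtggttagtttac

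In these 5 stretches the GAGGAA match nearest to the highest point lay 4 to 20 bases from it. Among the other called windows with GAGGAA, it lay 17 bases away in Sptb at 36.8 kb and 70 bases away in Rhag at 27.7 kb. In Ank1 it lay 14 bases away at 0.434 kb and 2 bases away at 174.4 kb. The 200 bases around the highest point of Ank1 at 78.9 kb held no match. The Add2 stretch held both GAGGAA words, on opposite strands, and 1 AGATAA within the same 200 bases.

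PU.1 reads above input were found at scattered windows of 6 of the 7 genes, in either cell type or both, and at no window of Slc4a1. Of all protein-coding genes, 60% had such a window within the same limits in either cell type. In MEL cells it was 4 of the 7 genes against 52.2% of all genes, and in ES-EP 6 of the 7 against 41.8%. By windows, in MEL cells 8 of the 1261 windows with a ChIP read were called (0.634%), against 0.545% of all windows of the genome and 0.795% of windows within 10 kb of any protein-coding gene. In ES-EP 12 of 1278 windows were called (0.939%), against 0.384% of all windows and 0.557% of those near genes. Ank1 held 6 of the 12. The MEL share is thus near the background, and the ES-EP share is made up of few windows. Without ES-EP preparation A the count was 4 of 1135, against 6999 of 3182398 windows of the genome. It was 3 of 1278 when each preparation had to pass an adjusted p, against 5438 of 3972392. With the input of the window alone it was 4 of 1278, against 4983 of 3972392. The call used above gave 15255 of 3972392 over the genome, so fewer windows were called there as well.

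The calls covered 18 different windows, of which 9 were in Ank1, 4 in Sptb, 2 in Add1 and 1 each in Rhag, Add2 and Tmod1. The 2 windows called in both cell types, upstream of Add2 and inside Ank1, were 2 of the 8 MEL calls and 2 of the 12 ES-EP calls. Genome-wide, 7190 windows were called in both, which is 33.6% of the MEL calls and 47.1% of the ES-EP calls. Of the 18, 3 lay within 1 kb of the start of a protein-coding gene, and 9 overlapped no annotated exon.

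**Figure D1:**
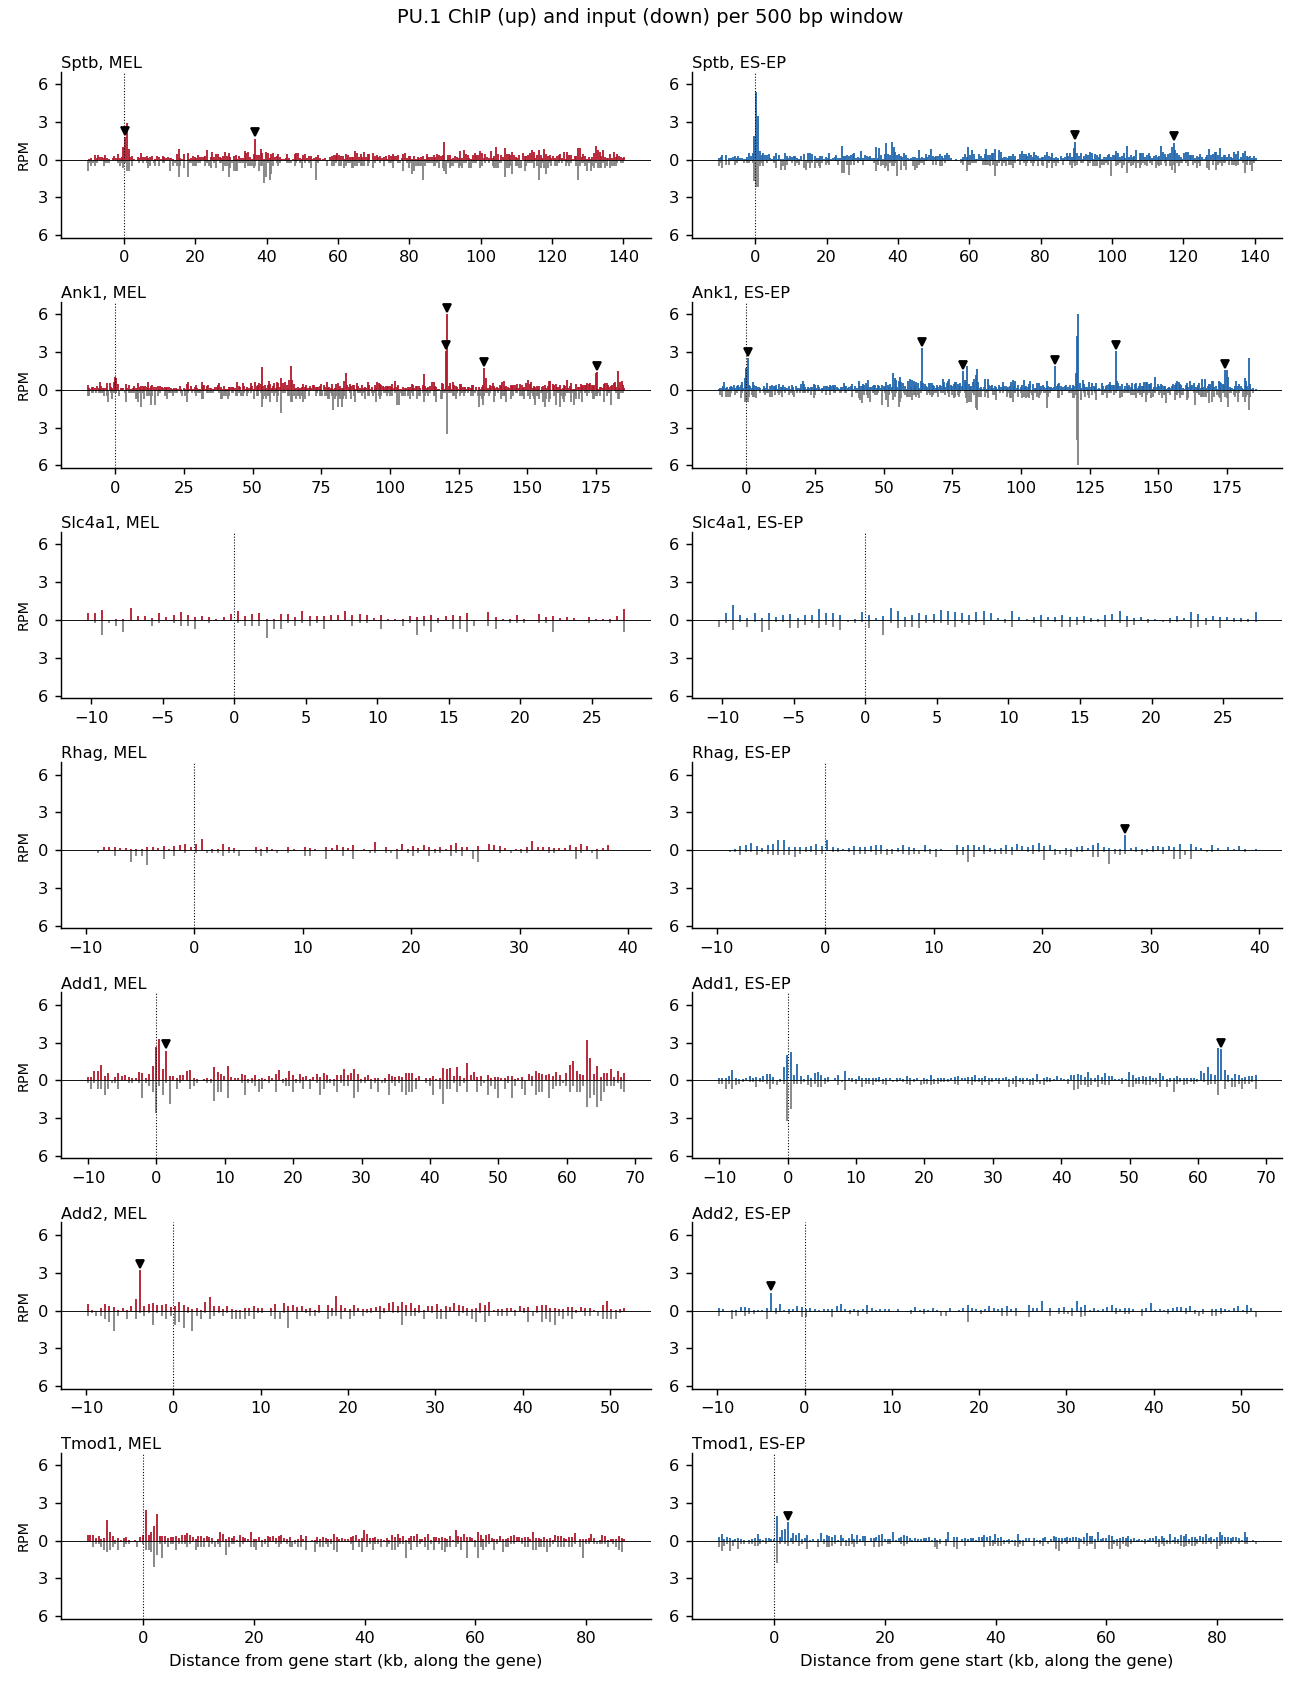
RPM in each 500 bp window along the 7 genes in MEL cells (left) and ES-EP (right), against distance from the gene start in kb. Bars up are PU.1 ChIP of both preparations and bars down are input, bars are cut off at 6, the dotted line is the gene start and black triangles mark called windows. Slc4a1 carries no triangle in either cell type, and bars at 120.9 kb of Ank1 run past the axis in ES-EP input as well as ChIP.

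Sptb, the spectrin gene, spans chr12:77681475-77811534 on the minus strand and is listed in the annotation under its older name Spnb1. Its start showed PU.1 reads in both cell types, but with the preparations far apart. In the window centred 0.284 kb inside the gene, over the first exon, MEL preparations A and B held 8 and 15 reads against 1 read of MEL input. That was 4.74 times the background (95% exact Poisson interval 3.01 to 7.11, adjusted p 8.02e-07), and the window was called. In ES-EP the same window held 54 and 18 reads against 16 of input, so preparation A carried it. The summed ES-EP reads passed (2.52 times background, adjusted p 4.42e-09) but preparation B alone did not (unadjusted exact Poisson p 0.265), and the window was not called there. ES-EP input itself was high at this start, with 47 reads within 1 kb against 8 in MEL input.

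The other called windows of Sptb lay deep in the gene and held few reads. An intronic window at 36.8 kb was called in MEL cells, where preparation A held 10 reads and preparation B 11 against 2 of input (adjusted p 0.0247). ES-EP held 11 and 7 reads there, nearly the same number, and missed the threshold (adjusted p 0.0784). Windows at 89.8 kb, which overlaps a coding exon, and at 117.3 kb, in an intron, were called in ES-EP (adjusted p 0.0343 and 0.0140). At 89.8 kb ES-EP had 9 and 10 reads and MEL cells 7 and 11, each against 4 of input. At 117.3 kb ES-EP had 11 and 7 reads and MEL cells 1 and 1, an 8.53-fold ratio of levels in RPM and the only one of the 18 windows past 5-fold between the cell types.

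Ank1, the ankyrin gene, spans chr8:24085316-24260969 on the plus strand and has annotated starts at several points along its length. Its one window called in both cell types lay far inside the gene, at 134.4 kb. MEL preparation A held 12 reads there and preparation B 10, against 2 of input (3.27 times background, interval 2.05 to 4.94, adjusted p 5.69e-04). The ES-EP preparations had 22 and 19, again against 2 of input. The ES-EP signal was 10.5 times background (interval 7.52 to 14.2), and each of the 4 preparations was above its input in RPM. The window lay at -11671 bases from the nearest annotated start of Ank1 and overlapped an annotated exon of the gene.

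An intronic Ank1 window at 63.9 kb held 31 and 13 reads in ES-EP preparations A and B against 1 of input, 8.92 times background (interval 6.48 to 11.97). It lay 3547 bases past an internal start of Ank1. MEL preparation A also had 17 reads there but preparation B had 7, against 4 of input, and the window was not called in MEL cells (adjusted p 0.134). The window at 112.4 kb overlapped an annotated Ank1 exon. It had 14 and 11 reads in ES-EP and none in either ES-EP input library, which gave 6.83 times background (interval 4.42 to 10.1). MEL cells had 6 and 10 reads there against 4 of input. These 2 windows and the one at 134.4 kb were called in ES-EP under all 8 alternatives tried on the same windows. The MEL call at 134.4 kb held under 4 of the 8, and not without preparation A (adjusted p 0.373), with reads not shifted (adjusted p 0.327), with the input of the window alone (adjusted p 1.00), or when each preparation had to pass an adjusted p.

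At the first start of Ank1 the window centred 0.434 kb inside the gene held 20 and 14 reads in ES-EP against 7 of input and was called there (2.72 times background, adjusted p 1.43e-04). MEL cells had 3 and 9 reads against 1 of input. The 3 remaining called windows outside the repeat described next held fewer reads, 18 to 21 in the cell type that called them. They lay at 78.9 and 174.4 kb in ES-EP and at 175.4 kb in MEL cells, the last within the 3' end of the gene.

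A single Ank1 window held far more reads than any other window of the 7 genes, in ChIP and in ES-EP input. It is centred at 120.9 kb, in an intron at -323 bases from an annotated internal start, and was called in MEL cells together with its neighbour at 120.4 kb. MEL preparations A and B held 429 and 503 reads there against 15 of MEL input, or 56.5 to 85.9 RPM in the 4 libraries against 3.51. In ES-EP the ChIP libraries held 67.8 to 172 RPM and the input libraries 155 and 233, so ChIP did not exceed input (adjusted p 1.00). The reads were stacked: the 4 most used positions held 62.2% to 75.9% of the reads in every library but MEL input (53.3% of 15 reads). The position used most over all 11 libraries, with 939 reads, is in capitals in the stretch around the highest point, chr8:24206044-24206243, + strand.
Ank1 at 120.9 kb: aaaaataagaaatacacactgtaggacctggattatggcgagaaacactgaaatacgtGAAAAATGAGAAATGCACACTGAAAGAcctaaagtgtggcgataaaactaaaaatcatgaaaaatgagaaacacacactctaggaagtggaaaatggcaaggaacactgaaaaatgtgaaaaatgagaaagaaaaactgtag

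The 27 bases in capitals occur once in mm9 as an exact match. Some words of the window occur up to 58 times and some of the neighbouring window up to 3116 times. Matches with up to 2 mismatches, which the alignment allowed, were not counted, so the single exact match does not place the reads at Ank1. Where the stacked reads came from was not tested. The one library that was low here is also the one with reads of 28 bases. The part of read length in this call was not tested. Without windows of such high input and their neighbours, 5 of 1240 windows of the 7 genes were called in MEL cells. Over the genome it was 15554 of 3890489. In ES-EP it was 10 of 1257, against 12513 of 3940828 over the genome. Both Ank1 windows at the repeat and the Sptb start window then drop out in MEL cells, and the windows of Tmod1 at 2.44 kb and Add1 at 63.4 kb in ES-EP.

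**Figure D2:**
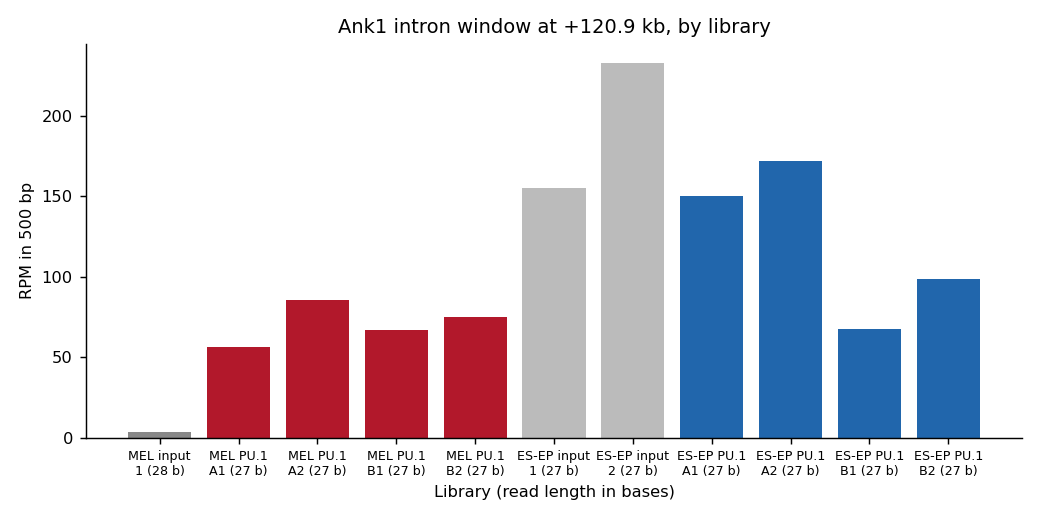
RPM in the Ank1 window at 120.9 kb in each of the 11 libraries, with read length in bases in the labels. MEL input, at 3.51, is the one low bar, and ES-EP input at 155 and 233 lies within or above the range of the ES-EP ChIP libraries (67.8 to 172).

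The membrane protein genes Slc4a1 and Rhag had 0 and 1 called windows. Slc4a1, chr11:102210138-102227517 on the minus strand, had no called window among its 76 in either cell type. Its window with the most reads, at -9.23 kb from the start, had 4 and 6 reads against 5 of input for MEL cells, and 6 and 10 against 6 of input for ES-EP. Over the whole stretch its ChIP reads were 0.851 to 1.06 times input in MEL cells and 0.964 to 1.14 times in ES-EP. A site with a signal of a few reads would not be detectable at this depth. Rhag, chr17:40948075-40977703 on the plus strand, had 1 called window, in an intron at 27.7 kb, in ES-EP. It held 9 and 7 reads against 2 of input (3.79 times background, interval 2.17 to 6.15, adjusted p 0.00273), and MEL cells had 4 and 1 reads with none in input. The Rhag start had no called window, although its reads within 1 kb had the highest ratio to input of the 7 genes, 4.05 in MEL cells from 10 and 14 reads against 2 of input and 2.80 in ES-EP from 18 and 7 reads against 5.

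Among the genes of the actin junction, Add2 had the most even signal across preparations. The gene spans chr6:86028078-86069549 on the plus strand, and its called window is centred at -3.83 kb from the start, outside any annotated gene. MEL preparations A and B held 18 and 23 reads (7, 11, 8 and 15 in libraries A1, A2, B1 and B2) against 1 of input, 5.01 times background (interval 3.59 to 6.79, adjusted p 1.97e-13). ES-EP held 10 and 9 reads (3, 7, 3 and 6 in the libraries) against 1 of input, 5.58 times background (interval 3.36 to 8.72, adjusted p 1.99e-06). Every library of both cell types was thus above its input in RPM. It is the window whose highest point lies beside the GAGGAAGT word printed above. The Add2 start itself had no such signal, with ChIP reads within 1 kb at 0.540 times input in MEL cells and 0.611 times in ES-EP.

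Add1, chr5:34916313-34974957 on the plus strand, had a called intronic window at 1.44 kb in MEL cells, with 18 and 12 reads in preparations A and B against 1 of input (3.01 times background, interval 2.03 to 4.29, adjusted p 6.47e-05). Library B1 had no read there, where a count of 0 allows up to 3, and B2 had 12. ES-EP had 13 and 4 reads against 2 of input and was not called. A further window past the end of Add1, at 63.4 kb from its start, was called in ES-EP with 9 and 24 reads and no input read. MEL cells held 2 and 21 reads there against 6 of input and were not called. This window lies 111 bases inside the start of the neighbouring gene Mfsd10, so it counts for the Add1 stretch by position alone.

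Tmod1, chr4:46051807-46128904 on the plus strand, had 1 called window, in an intron at 2.44 kb, in ES-EP. It held 10 and 10 reads against 3 of input (3.73 times background, interval 2.28 to 5.76, adjusted p 3.41e-04). In MEL cells the same window held 7 and 20 reads against 5 of input (adjusted p 0.276).

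Few of the calls held under each of the 8 alternatives tried on the same windows. These were an adjusted p below 0.01, an adjusted p below 0.05 in each preparation alone, the input of the window alone, either preparation left out, windows of high input left out (chosen after seeing the data), 1 read per position and strand, and reads not shifted. Of the 20 calls, counting MEL cells and ES-EP separately, 6 held under 3 of the 8: Sptb at 36.8, 89.8 and 117.3 kb, Ank1 at 78.9 and 174.4 kb, and Tmod1 at 2.44 kb. A further 3 held under 4, namely the Sptb start and Ank1 at 134.4 and 175.4 kb, all in MEL cells. The ES-EP calls at the Ank1 start, Rhag, Add1 at 63.4 kb and Add2, and the MEL call of Add1 at 1.44 kb, held under 5. The Add2 call in MEL cells and both MEL calls at the Ank1 repeat held under 7.

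**Figure D3:**
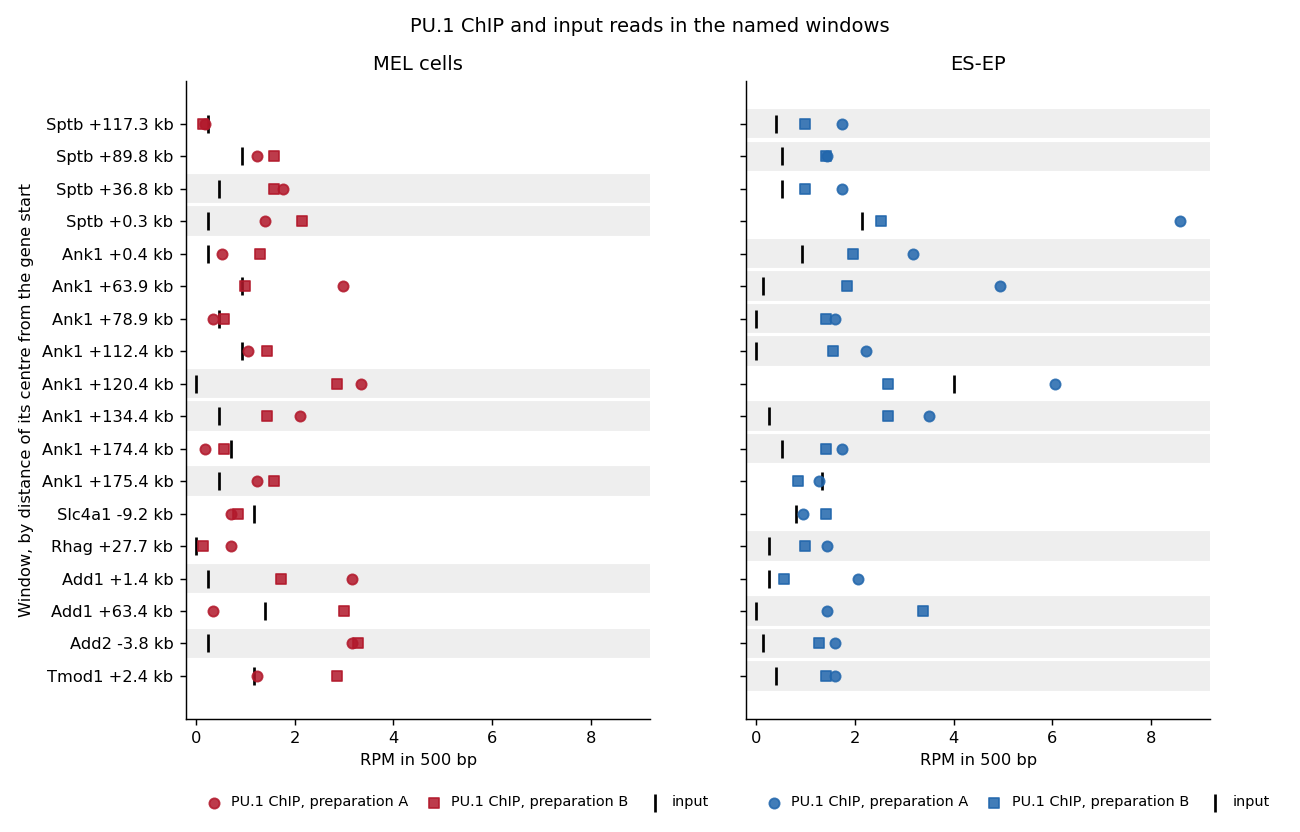
RPM in the called windows and in the Slc4a1 window with the most reads, by distance of the window centre from the gene start, without the Ank1 window at 120.9 kb. Circles are preparation A, squares preparation B, vertical ticks input, and grey bands mark windows called in that cell type. Add2 at -3.83 kb and Ank1 at 134.4 kb are banded in both panels, and ES-EP preparation A stands alone at the Sptb start.

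The starts of 4 of the genes showed the same split between the MEL preparations. Just inside the starts of Sptb (0.784 kb), Add1 (0.437 kb) and Tmod1 (0.443 kb) preparation B of MEL cells held 28, 34 and 24 reads and preparation A 9, 8 and 7, against 4, 2 and 3 of input. Ank1 had 10 and 9 reads in preparation B and 3 and 3 in preparation A in the 2 windows at its start. The summed reads of these windows passed the adjusted threshold (adjusted p 2.13e-09 to 0.0313), and preparation A alone missed it in each (unadjusted p 0.0915 to 0.197). In all, 6 MEL windows of the 7 genes passed on the sum but not in both preparations, and in all 6 it was preparation A that failed. Genome-wide this was so for 84.5% of 7692 such MEL windows, while in ES-EP preparation A failed in 12.6% of 4776. MEL preparation A and ES-EP preparation B thus gave fewer windows than their partners across the genome as well as here.

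By the call used above, 1 of the 7 genes (Sptb) had a called window within 1 kb of its start in MEL cells, against 28.3% of all protein-coding genes. In ES-EP it was again 1 of 7 (Ank1), against 18.1%. Reads within 1 kb of the starts, set against input, were 0.540 to 4.05 times input in MEL cells with a median of 2.53, against 1.43 over all protein-coding genes. In ES-EP they were 0.611 to 2.80 times input with a median of 1.22, against 1.197 over all genes. The MEL ratios rest on 2 to 21 input reads a gene.

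Levels of PU.1 ChIP in MEL cells and ES-EP were compared with limma on the 4 preparations, 2 against 2, over all windows with at least 20 ChIP reads. Of the 64 such windows of the 7 genes, none passed an adjusted p of 0.05 and 2 had an unadjusted p below 0.05, against 157 windows called of 65012 genome-wide (0.241%) with 4202 at an unadjusted p below 0.05. The 2 were the start windows of Sptb (log2 difference MEL minus ES-EP -1.40 ± 0.63 SE, limma adjusted p 0.668) and of Ank1 (-1.37 ± 0.65 SE, limma adjusted p 0.718). The Add2 window upstream of the start differed by 1.14 ± 0.61 (SE) in the direction of MEL cells (limma adjusted p 0.790). Its input background was also higher in MEL cells, 8.19 reads against 3.40, so that against input the order turned (5.01 times in MEL cells, 5.58 in ES-EP), and over the whole Add2 stretch input stood at 60.3 RPM in MEL cells against 23.6 for ES-EP. The Ank1 window at 134.4 kb, also called in both cell types, differed by -0.79 ± 0.61 (SE, limma adjusted p 0.790). With standard errors of 0.596 or more on the log2 scale in each of the 64 windows, differences of moderate size were not detectable.

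The same comparison was made at the gene starts. Of the 7 genes, 0 passed an adjusted p of 0.05 within 1 kb of the start and 0 had an unadjusted p below 0.05, against 41 of 17669 promoters called by limma (0.232%) and 1478 at an unadjusted p below 0.05. At Sptb, MEL preparation A held 24 reads and preparation B 51, while the ES-EP preparations had 97 and 54 (log2 difference -0.99 ± 0.65 SE). The Ank1 start had 11 and 29 in the MEL preparations, compared with 40 and 32 for ES-EP (-0.91 ± 0.55 SE). For Add2 the MEL preparations gave 13 and 11 reads, those of ES-EP 7 and 5 (1.05 ± 0.57 SE). Limma's adjusted p was 0.624 to 0.689 at these 3 starts. The remaining 4 promoters differed by 0.16 to 0.44. These sizes depended on single preparations. With 1 left out at a time, the Sptb promoter ran from -1.48 without ES-EP preparation B to -0.46 without ES-EP preparation A, and the Sptb start window from -2.26 to -0.52 in the same way. The Ank1 promoter ran from -1.45 without MEL preparation B to -0.38 without MEL preparation A, and the Ank1 start window from -2.08 to -0.94 in the same way.

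At the starts of Sptb, Ank1 and Add2 input differed in the same direction as ChIP. Around the starts of Sptb and Ank1 input was lower in MEL cells than in ES-EP by -1.75 and -1.78 on the log2 scale, and around the start of Add2 it was higher by 1.26 on that scale. At the other 4 starts input was lower in MEL cells, by -0.61 to -0.29, while the ChIP difference was above 0. The median input difference over all protein-coding genes was -0.40. The limma values do not take input into account. With the ratio of input over the whole chromosome taken off, the Ank1 promoter difference was -0.425 in place of -0.91, while Sptb (-1.03) and Add2 (1.045) stayed near their values. Against the input at the starts themselves the order of the cell types turned at all 3, with ChIP at 3.16 times input in MEL cells and 1.80 in ES-EP for Sptb, 3.37 and 1.68 for Ank1, and 0.540 and 0.611 for Add2. With the ratio of input over the whole chromosome taken off, the Ank1 windows at the start and at 134.4 kb came to -0.88 and -0.30. Against local input background the order turned at the start window, 3.54 times in MEL cells and 2.72 in ES-EP. It did not turn at 134.4 kb, with 3.27 and 10.5 times. The ratios to input were not tested between the cell types.

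**Figure D4:**
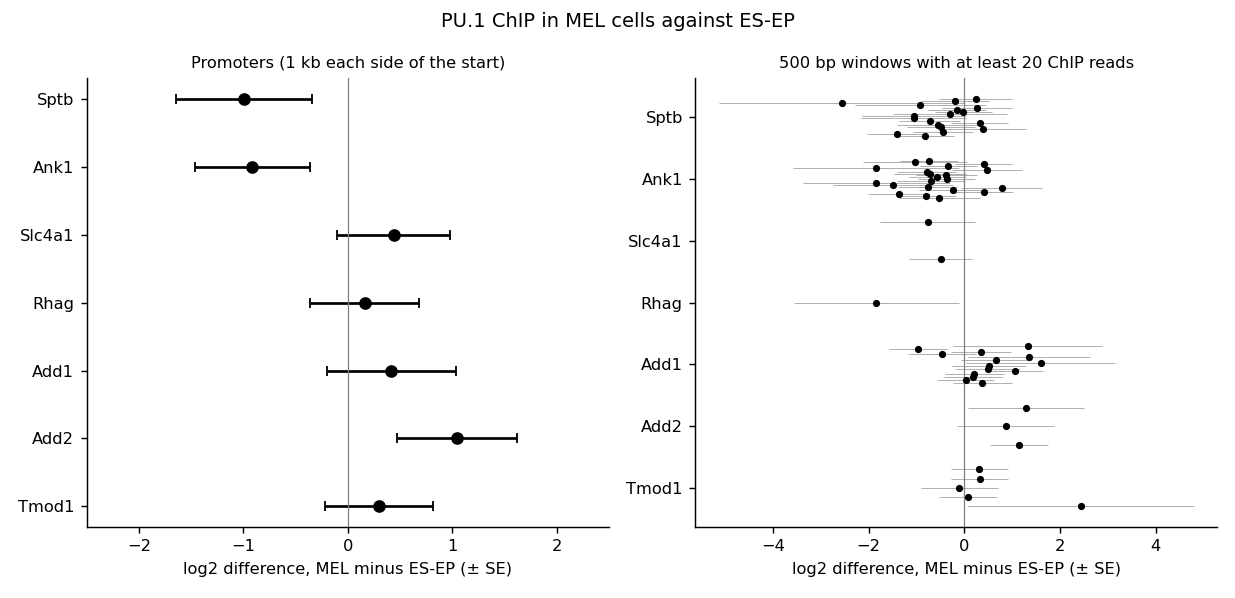
Log2 difference in PU.1 ChIP reads, MEL minus ES-EP, with its standard error from limma, for the promoters of the 7 genes (left) and for their 64 windows with at least 20 ChIP reads (right). No point passed an adjusted p of 0.05, and at the promoters Sptb and Ank1 lie at -0.99 and -0.91 and Add2 at 1.05.

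Other genes of the red cell membrane and skeleton were taken from a list of 21 symbols, which the annotation holds as 22 entries because Gypc has 2. In MEL cells 8 entries had a called window within 1 kb of the start. The number for ES-EP was also 8, and 7 entries were called in both cell types. The shares of all protein-coding genes were the 28.3% and 18.1% given above. Of the 7 genes above, 1 was called in each cell type and 0 in both, and of all protein-coding genes 12.4% were called in both. The 7 entries shared by both were Epb41 (protein 4.1), Tmod3, Actb (beta-actin), Icam4, Cd47, Aqp1 (a water channel) and Slc2a1 (a glucose transporter). Xk was called in MEL cells alone and Mpp1 in ES-EP alone. A called window counted here when any part of it lay within 1 kb of the start, so its reads could lie partly beyond. Such a window did not always come with reads well above input over the whole 1 kb on each side. In ES-EP Mpp1 stood at 1.007 times input (5 and 4 reads against 5 of input) and Aqp1 at 1.057 times. The strongest of them against input were Cd47 in MEL cells, with 41 and 51 reads in preparations A and B at 3.88 times input, and Slc2a1 in ES-EP, with 129 and 70 reads at 4.13 times input. None of the 22 passed limma between the cell types at an adjusted p of 0.05 and 4 had an unadjusted p below 0.05 (1478 of all 17669), the lowest adjusted p being that of Aqp1 (log2 difference 1.83 ± 0.56 SE, limma adjusted p 0.133).

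Of relatives that serve mainly outside red cells, 6 were also examined. Sptan1, the alpha spectrin of other tissues, had a called start window in both cell types, at 5.62 times input in MEL cells, from 27 and 73 reads, and at 1.67 times input in ES-EP, from 105 and 59 reads. Its partner Sptbn1 was called in MEL cells alone and Slc4a2 in ES-EP alone, where reads around its start were 0.913 times input. Ank2, Ank3 and Tmod2 had no called start window in either cell type. None of the 5 with enough reads passed limma (0 at an unadjusted p below 0.05).

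A set of 4 words was searched on both strands in the 500 bp of each window: GGAA as the Ets core, the longer GAGGAA and GAGGAAGT that contain it, and AGATAA as a GATA word. The core GGAA was found in 99.3% of all windows of the genome and so does not tell windows apart. GAGGAA was found in 10 of the 18 called windows of the 7 genes (55.6%), in 43.4% of all their 1347 windows, in 39.3% of windows of the genome, and in 56.8% and 63.6% of the windows called in MEL cells and ES-EP genome-wide. GAGGAAGT was found in 4 of the 18 (22.2%), in 4.23% of the 1347, in 3.01% of the genome, and in 22.3% and 27.3% of the genome-wide calls. The share among the called windows was therefore close to that of called windows elsewhere. AGATAA was found in 4 of the 18 (22.2%), namely Add2 at -3.83 kb, Add1 at 1.44 kb and Sptb at 0.284 and 36.8 kb, in 20.3% of the 1347, in 30.0% of the genome, and in 20.99% and 26.2% of the genome-wide calls. By cell type it was 4 of the 8 MEL calls (50%) and 1 of the 12 ES-EP calls (8.33%), both of few windows. The 8 called windows with no GAGGAA were Sptb at 0.284, 89.8 and 117.3 kb, Ank1 at 120.4, 120.9 and 175.4 kb, Add1 at 63.4 kb and Tmod1 at 2.44 kb. A match is a description of the letters and not a measured site.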

How the data were processed

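PU.1 ChIP-Seq and input libraries of MEL cells and ES-EP were analysed from the aligned reads. The deposited files list the chromosome, start (counted from 1), end, sequence and strand of each read, which is neither a count table nor a peak list. The authors sequenced on an Illumina GAII, aligned with ELAND (version not given in the sources used here) to mm9 and kept unique reads with up to 2 mismatches, so reads of repeats can be missing or misplaced. Of 2000 reads checked per library, 99.6% to 100% matched the NCBIM37 genome (mm9) at their positions. Genes were taken from GENCODE vM1 and older names were matched through RefSeq synonyms.

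The 5′ ends were shifted by 70 bp (MEL) or 65 bp (ES-EP), and reads per 500 bp window were counted (Python 3.11.15, numpy 2.4.6, scipy 1.17.1). The 2 libraries of a preparation were summed. ChIP was tested against the largest of the depth-scaled input of the window, of 11 and of 21 windows around it, and the genome mean. MEL cells and ES-EP were compared with limma 3.58.1 (voom, R 4.3.3) on windows and on promoters (1 kb on each side of the gene start) with at least 20 ChIP reads, with Benjamini-Hochberg adjustment over the genome. Calls and fits were tested on simulated data. Promoter ratios to input used 3 reads where input had none.

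The genes, lists, words and tests were chosen with earlier results of these data known. All 7 genes are described; each joined run of called windows was named, up to 5 per gene by ChIP reads, and the rest are summarised. Of the 2 fixed lists, genes with a called window within 1 kb of the start were named, and a few others for context after their values were seen. Preparations are the replicates. Whether they came from separate cultures beyond separate chromatin is not stated, so the limma p-values cover at most the spread between chromatin preparations. The standard errors behind these p-values need not follow that spread at a named window. Add1 at 63.4 kb had a standard error of 0.604, from 2 and 21 reads (MEL) and 9 and 24 (ES-EP). For Sptb at 89.8 kb it was 0.597, although the preparations lay closer, with 7 and 11 reads (MEL) and 9 and 10 (ES-EP). The p-values of the window calls against input cover only the counting error of the ChIP reads, with the input background taken as fixed. The study's own peak calls and expression data were not used here. A result for 1 entry of the lists is not reported here.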

Additional observations from a re-analysis of the deposited data

Results flagged for a closer look

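The 4 libraries of each ChIP group were compared in each of the 19 windows named, which gave 38 groups, and in 4 of them 1 library stood apart from the other 3 in RPM (reads of the window for every 1000000 of the library) by Dixon's criterion. Chance alone sets apart about 1 group in 20. At the Add1 window at 1.44 kb, library B1 of MEL cells had 0 RPM, with no read, against 6, 12 and 12 reads in A1, A2 and B2. At the Add2 window at -3.83 kb, library A2 of ES-EP had 1.78 RPM, from 7 reads, against 3, 3 and 6 reads in A1, B1 and B2. At the Ank1 window at 112.4 kb, library A2 of MEL cells had 0.823 RPM, from 3 reads, against 3, 4 and 6 reads in the others. At the Slc4a1 window at -9.23 kb, library A1 of ES-EP had 0.425 RPM, from 1 read, against 5, 3 and 7 reads in the others.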

How the results depend on the processing

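The calls are counts of few reads and depend on how strictly the preparations must agree. A first setting required each preparation to pass an adjusted p alone, and a second used only the input of the window itself (exact binomial test). Over the genome they took the MEL calls from 21388 to 7810 and 3194, and the ES-EP calls from 15255 to 5438 and 4983. Against 8 windows of the 7 genes called in MEL cells, they gave 3 and 2. The 2 were the Ank1 windows at the repeat, at 120.4 and 120.9 kb. The 3 were these and Add2 at -3.83 kb. Leaving out 1 preparation gave 6 of 1038 (11526 of 2871716 over the genome) to 12 of 1122 (23662 of 3056534). Leaving out windows of high input, chosen after seeing the data, gave 5. Against 12 in ES-EP the first 2 settings gave 3 and 4. There, leaving out 1 preparation gave 4 of 1135 (6999 of 3182398 over the genome) to 13 of 1038 (19365 of 2864187). Windows of 1000 bp gave 7 of 670, against 11580 of 2289599 over the genome. In ES-EP the 4 and in MEL cells the 12 came without preparation A, and the 13 and 6 without preparation B. Between the cell types, 0 of the 7 genes' windows were called by limma except without a filter on low reads. That setting called 2 of 1331 windows of the 7 genes, against 6381 of 4523487 over the genome. The 2 were neighbouring Add2 intron windows at 24.7 and 25.2 kb, higher in MEL cells (limma adjusted p 0.0370 and 0.0254). Preparation A of MEL cells held 3 and 4 reads in them and preparation B 5 and 5, with none in ES-EP.

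The letters A and B are not stated to pair the preparations of the 2 cell types. The correlation of their deviations was 0.0425 over windows and -0.156 over promoters, which cannot show how the preparations were made. With the letter as a replicate block, 0 windows and 0 promoters of the 7 genes were called, and the genome-wide counts went from 157 to 10 windows and from 41 to 31 promoters. Crossed letters, added after seeing the data, gave 2265 promoters and 1 of the 7 genes (Sptb). Over the other alternatives the genome-wide counts ran from 0 to 6381 windows and from 0 to 625 promoters. Median-ratio scaling moved the median log2 difference of all promoters from -0.258 to -0.0048 and of all windows from -0.094 to 0.011, with 429 promoters higher in MEL cells and 196 higher in ES-EP, against 24 and 17.

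No log2 difference named was past the threshold as reported, and 7 changed sign. Leaving out 1 preparation at a time, the ranges of these 7 were -0.18 to 0.14 for Sptb at 89.8 kb (above 0 without MEL preparation A), -0.07035 to 0.72 for Sptb at 36.8 kb (below 0 without ES-EP preparation B), -0.95 to 0.20 for Ank1 at 120.4 kb (above 0 without ES-EP preparation A), -2.36 to 0.45 for Add1 at 63.4 kb (above 0 without MEL preparation A), -0.26 to 0.90 for Tmod1 at 2.44 kb and -0.17 to 0.80 for its promoter (below 0 without MEL preparation B), and -0.59 to 0.89 for the Rhag promoter (below 0 without ES-EP preparation B). Sptb at 89.8 kb was also 0.10 with median-ratio scaling and 0.13 with libraries as samples, Ank1 at 120.4 kb 0.11 with the chromosome's input ratio taken off, and the Rhag promoter -0.51 with 500 bp on each side. The cause was not tested.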
